A study of Homo sapiens with 30 samples.

Results

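DUSP4, DUSP5, DUSP6, SPRY2, SPRY4, SPRED1, SPRED2, ETV4, ETV5 and PHLDA1 are 10 genes of the RAS to ERK pathway that ERK signalling switches on, most of which encode proteins that dampen the same pathway. They were chosen by name as ERK output and feedback genes, by a rule that uses no measured value but was drawn up with earlier results of these data known, and are 10 of the 57992 genes in the table. HCT116, a human colorectal carcinoma line, was left untreated or given Omomyc at 2 or 10 µM for 6 or 24 h, and Ramos, a human Burkitt lymphoma line, was left untreated or given Omomyc at 0.5 or 2.5 µM for 6 or 24 h. Omomyc is a mutant basic helix-loop-helix leucine zipper domain of MYC that pairs with MYC, MAX or itself and interferes with MYC-driven transcription, and here it was added to the culture as a protein. The labels describe MYC as stabilized in HCT116 and translocated in Ramos cells. Each of the 10 groups held 3 RNA-Seq libraries, 30 in all, and the question addressed was how the transcriptome of each line responded to the protein at each dose and time. The lower dose in HCT116 cells is the 2 µM of the labels, where the study's methods give 2.5 µM, and the groups called 24 h are those whose titles give 24 h, although a tag on them reads 4 h. The HCT116 cells received Omomyc with the protein delivery reagent ProteoJuice. By the study's methods the reagent was applied in Opti-MEM, and medium with serum was added for incubations longer than 4 h. The part of this change of medium in the HCT116 results was not tested. The sources used here do not say whether the untreated cells received the reagent or when they were collected. Nor do the sources say how the Ramos cells were treated. They also do not say whether replicates came from separate cultures, so every p-value measures only the spread between these libraries.

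Growth factor receptors activate RAS, which drives the RAF, MEK and ERK kinases in turn, and active ERK raises transcription of a set of genes that report on its activity. Among these genes are the dual-specificity phosphatases DUSP4, DUSP5 and DUSP6, which remove the activating phosphates from ERK, and the Sprouty and SPRED proteins, which restrain the pathway at the level of RAS and RAF. ETV4 and ETV5 are ETS transcription factors of the PEA3 subfamily that act downstream of ERK, and PHLDA1 is a pleckstrin homology-like domain protein induced by growth factor and stress signals.

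Expression is given as RPKM, a read count scaled to gene length and to library size, and fold changes are differences of log2(RPKM + 0.5), which understate the change of low genes. A gene was tested where its mean was at least 0.5 RPKM over the libraries compared, and was called changed at a Benjamini-Hochberg adjusted p under 0.05 in limma. The RPKM of a library summed to 593633 to 1051041 in HCT116 and to 783788 to 973736 in Ramos cells, and the total number of reads is not given. The steps between low values nevertheless gave each library's depth relative to untreated HCT116 replicate 1. It ranged from 0.478 to 1.11 in HCT116 and from 0.606 to 1.05 in Ramos cells, and the 3 untreated HCT116 libraries were deeper than the 12 treated ones, of which the deepest stood at 0.900. Replicate 3 of 10 µM at 6 h in HCT116 cells stood apart. It had the lowest relative depth, the highest RPKM sum and a Pearson r of 0.965 to 0.970 with its replicates, against 0.984 to 0.994 for the other 28 pairs. All 8 epithelial markers (EPCAM, CDH1, KRT8, KRT18, KRT19, CLDN3, CLDN4, ELF3) had a mean of at least 2 RPKM in HCT116 cells and under 0.5 in Ramos cells. The B-cell markers CD79A, CD79B, MS4A1, CD22, PAX5, PTPRC and CD74 each had a mean of at least 2 RPKM in Ramos cells, and all of these but CD22 were under 0.5 in HCT116 cells.

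Without treatment, HCT116 cells expressed all 10 genes, and Ramos cells expressed SPRED2 at a like level, DUSP5, PHLDA1 and ETV4 at lower levels and the other 6 genes hardly or not at all. DUSP6 (ENSG00000139318, chromosome 12, 89347232 to 89353271 on GRCh38), the cytoplasmic phosphatase specific for ERK, was the most abundant member in HCT116 cells, at 152, 159.9 and 160.1 RPKM, which placed it 413th among 14649 genes of at least 0.5 RPKM. PHLDA1 (ENSG00000139289, chromosome 12, 76025447 to 76033932) followed at 67.8 ± 2.11 RPKM (SD, n = 3). The next were ETV5 (ENSG00000244405, chromosome 3, 186046308 to 186110318) at 32.1 ± 1.14, SPRY4 (ENSG00000187678, chromosome 5, 142310427 to 142326455) at 30.3 ± 1.06 and DUSP5 (ENSG00000138166, chromosome 10, 110497838 to 110511544) at 28.8 to 30.7 RPKM over its replicates. The replicates of these 3 neighbours overlapped in that order. DUSP4 (ENSG00000120875, chromosome 8, 29333064 to 29350668) at 22.04 ± 0.695 and ETV4 (ENSG00000175832, chromosome 17, 43527844 to 43579620) at 21.2 ± 0.300 RPKM overlapped as well. Lower still, and without overlap, lay SPRED2 (ENSG00000198369, chromosome 2, 65310851 to 65432637) at 15.8 ± 0.744, SPRED1 (ENSG00000166068, chromosome 15, 38252326 to 38357249) at 14.2 ± 0.147 and SPRY2 (ENSG00000136158, chromosome 13, 80335976 to 80340951) at 2.94 ± 0.259 RPKM.

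In untreated Ramos cells SPRED2 stood at 16.4, 15.6 and 16.6 RPKM, which overlapped the 16.3, 14.9 and 16.1 RPKM of HCT116 cells. DUSP5 stood at 4.21, 3.68 and 3.73, PHLDA1 at 4.99, 4.15 and 4.17 and ETV4 at 1.22, 1.74 and 1.28 RPKM. These 3 genes were 7.74, 15.3 and 15 times as high in HCT116 cells, with no overlap between the lines. SPRY2 was listed at 0 in all 15 Ramos libraries, and the highest values of SPRY4, DUSP4 and ETV5 in any of them were 0.0251, 0.0389 and 0.162 RPKM. DUSP6 reached at most 0.477 and SPRED1 at most 0.305 RPKM. Between the untreated lines 9 of the 10 genes were called higher in HCT116 cells, where 84.6% of 15647 genes were called and 45.7% were higher in HCT116. Of the 9, DUSP6, DUSP4, SPRY2, SPRY4, SPRED1 and ETV5 were under 0.5 RPKM in Ramos cells and passed the filter only through their level in HCT116 cells, so that for these 6 the call carries nothing beyond the levels above. SPRED2 was not called, with a difference of -0.04 on the log2 scale (95% confidence interval -0.17 to 0.09), although it became higher in HCT116 cells by 0.52 (adjusted p = 0.00139) when the libraries were rescaled to an equal sum of RPKM, a scaling that shifted the all-gene median from 0.09 to 0.65. In RNA from whole cultures, fewer expressing cells and less RNA per cell cannot be told apart, here or in what follows.

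**Figure D1:**
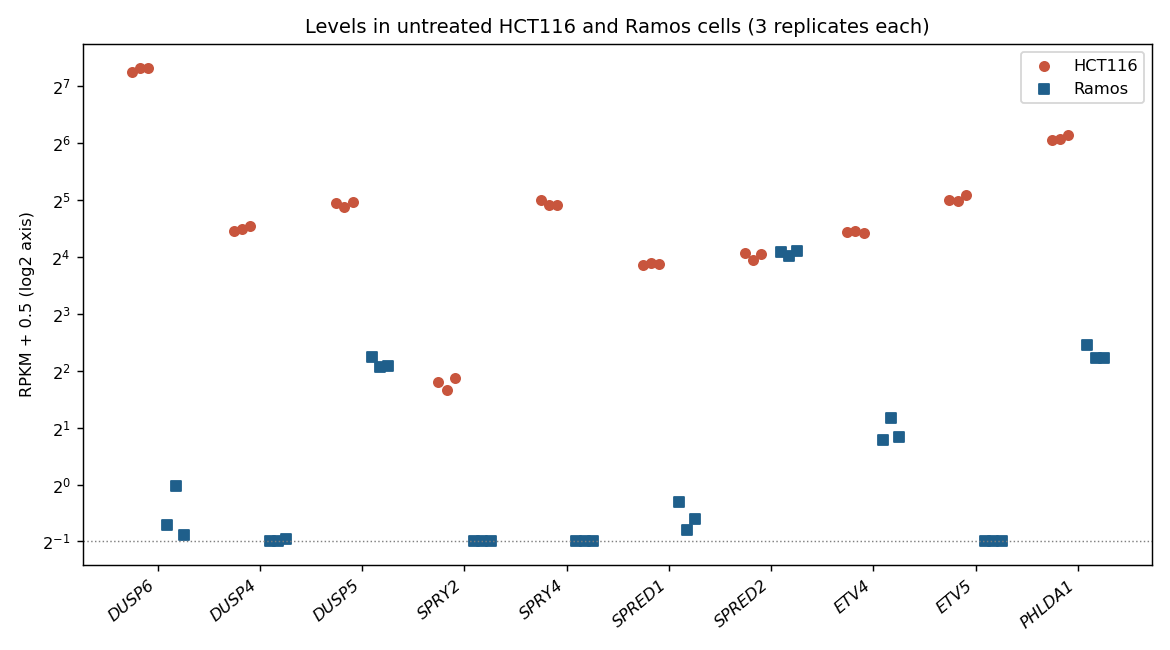
RPKM + 0.5 on a log2 axis for each member in untreated HCT116 (red circles) and Ramos (blue squares) cells, 1 point per replicate, with a dotted line at an RPKM of 0. Only SPRED2 lies at the same height in both lines, near 16 RPKM, and 6 members of the Ramos cells lie on or just above the dotted line.

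RefSeq promoter windows on GRCh38.p14 (250 bases before the transcription start) were matched by symbol to 6 of the 10 members, DUSP6, SPRY2, SPRY4, SPRED1, SPRED2 and PHLDA1, in 9 windows. They were searched on both strands for the E box CACGTG that MYC and MAX bind, for the cAMP response element TGACGTCA and its core TGACG, for the AP-1 site TGANTCA, for the ETS site CCGGAA and for the GC box GGGCGG. The core lies within the full element. The E box was in none of the 9 windows, against 6.34% of 35116 promoter windows of the same length, and the full cAMP response element (1.65% of all windows) and the AP-1 site (6.57%) were not found either. The core, held by 21.2% of all windows, was in SPRY4 and SPRY2. The ETS site, held by 14.5%, was in SPRY2 and PHLDA1, and the GC box, held by 42.6%, was in 4 members. A match or its absence describes these letters in these windows only. By the GENCODE annotation, all 250 bases of the DUSP6, SPRED1 and PHLDA1 windows and 170 bases of the SPRY4 window lay in exons. So did 38 bases of a SPRED2 window. These were exons of the gene itself, and for DUSP6 also of a gene on the other strand. The windows are thus not all sequence upstream of the gene. The SPRY2 window with the matches, another SPRY2 window and a SPRED2 window were set by starts not found in a GENCODE transcript. SPRY2, whose core and ETS matches are not shown, was not called against untreated HCT116 cells with the RPKM as deposited. A link between a match and a change was not tested. The 30 bases around the core of SPRY4 and the ETS site of PHLDA1 are shown on the strand of the gene with the match in capitals.
SPRY4, core of the cAMP response element 68 bases before the start, chr5:142324298-142324327, minus strand: tcttcggagccgTGACGgactgaattccct
PHLDA1, ETS site 89 bases before the start in reverse complement, chr12:76031848-76031877, minus strand: gaggagaggagtTTCCGGggctcgggtccg

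After 6 h in HCT116 cells the phosphatase genes went opposite ways. DUSP5, which encodes a nuclear phosphatase of ERK, rose to 5.38 times its untreated level with 2 µM and to 3.87 times with 10 µM Omomyc. DUSP6 fell to 65.9% and 53.8%, SPRY4 to 69.5% and 57.8%, and ETV5 to 57.3% and 45.4% of untreated cells. All comparisons with untreated cells of a line share the same 3 untreated libraries. In all, 6 of 10 members were called with 2 µM (2 higher, 4 lower), where 47.3% of 14550 genes were called (15.5% higher, 31.8% lower). With 10 µM 5 of 10 were called (1 higher, 4 lower), where 30% of 14785 were (8.84% higher, 21.2% lower). The median change was -0.16 over the 10 members and -0.12 over all genes with 2 µM, and -0.28 and -0.11 with 10 µM. Overlap with untreated libraries was absent in 7 members at each dose, against 57.8% and 50.2% of all genes.

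DUSP5 was measured at 30.4, 28.8 and 30.7 RPKM in untreated cells, at 164, 145 and 175 RPKM after 6 h with 2 µM and at 118, 126 and 104 RPKM with 10 µM. Every treated library lay far above every untreated library. The log2 fold changes were 2.40 (SE 0.08, adjusted p = 3.06e-07) and 1.93 (SE 0.10, adjusted p = 1.45e-04), the 44th and 72nd most positive of all genes tested. DUSP4, the inducible nuclear phosphatase of the same subfamily of proteins, went from 21.4, 21.9 and 22.8 to 31.6, 29.4 and 32.8 RPKM with 2 µM, without overlap, a rise of 0.49 (SE 0.07, adjusted p = 4.59e-04). With 10 µM it stood at 30.3, 27.3 and 22.02 RPKM, where replicate 3 overlapped the untreated libraries, and it was not called (0.25, 95% confidence interval -0.05 to 0.55, adjusted p = 0.179). Without replicate 3, the library that stood apart, DUSP4 was called at 0.38. Its rise with 2 µM was 0.16 and not called (adjusted p = 0.242) with an equal RPKM sum in each library, and at 10 µM the sign then turned to -0.23.

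DUSP6 fell from 152, 159.9 and 160.1 RPKM to 99.2, 106 and 106 RPKM with 2 µM and to 94.9, 88.6 and 70.3 RPKM with 10 µM. The groups did not overlap, and the lowest value was that of replicate 3 with 10 µM. The fold changes were -0.60 (SE 0.06, adjusted p = 1.06e-04) and -0.90 (SE 0.13, adjusted p = 0.00307).

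Of the genes for Sprouty and SPRED proteins, SPRY4 fell and the other 3 were not called at 6 h. SPRY4 went from 31.5, 29.6 and 29.7 to 19.7, 19.8 and 23.6 RPKM with 2 µM (-0.52, SE 0.08, adjusted p = 9.61e-04) and to 20.6, 18.6 and 13.3 RPKM with 10 µM (-0.80, SE 0.16, adjusted p = 0.0104). No treated library reached the untreated range, and the call with 10 µM was lost without untreated replicate 1 (adjusted p = 0.0520). SPRY4-AS1, which overlaps it on the other strand, went from a mean of 3.49 to 1.92 and 2.40 RPKM. SPRED1, which recruits neurofibromin to RAS, stood at 12.4 ± 0.839 and 12.3 ± 0.324 RPKM (SD, n = 3), below every untreated library at both doses, with adjusted p-values of 0.0651 and 0.137. SPRED2 spread from 12.05 to 17.1 RPKM with 2 µM and from 11.1 to 13.8 RPKM with 10 µM, and SPRY2 stayed between 2.31 and 3.37 RPKM. Leaving out replicate 3 of 10 µM brought SPRED1 (-0.19) and SPRED2 (-0.34) past the threshold at that dose. Under an equal RPKM sum SPRED1 and SPRED2 were called lower at both doses and SPRY2 at 10 µM.

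ETV5 showed the largest fall of the members at 6 h. It went from 31.6, 31.2 and 33.4 RPKM to 17.4, 16.9 and 20.8 RPKM with 2 µM and 14.8, 15.5 and 13.4 RPKM with 10 µM, with fold changes of -0.79 (SE 0.09, adjusted p = 1.45e-04) and -1.11 (SE 0.10, adjusted p = 5.98e-04) and no overlap. DGKG, which overlaps ETV5 on the same strand, went the other way, from 3.53 to 6.96 and 6.87 RPKM. ETV4 went from 21.1, 21.5 and 20.98 to 15.7, 15.7 and 17.51 RPKM with 2 µM (-0.37, SE 0.07, adjusted p = 0.00248) and to 17.2, 16.6 and 11.5 RPKM with 10 µM, where replicate 3 was far below the others (-0.50, SE 0.16, adjusted p = 0.0477). The call with 10 µM was lost without replicate 2 of that group or without any 1 of the 3 untreated libraries (adjusted p = 0.0521 to 0.139). It held without replicate 1 or 3 of that group, at -0.60 and -0.32. DHX8, an RNA helicase gene that overlaps ETV4 on the other strand, moved with it, from a mean of 28.98 to 19.2 and 16.5 RPKM, and the part of shared reads in the ETV4 values was not tested. PHLDA1 was not called, at 66.4 ± 4.78 and 65.4 ± 8.53 RPKM against 67.8 ± 2.11 RPKM in untreated cells (SD, n = 3).

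The scale on which 6 h libraries are set matters for small changes. The 10 most abundant genes took 23.8 to 31.4% of the RPKM sum in untreated HCT116 cells and 35.8 to 54.2% in the 6 h libraries. Median-ratio scaling took the all-gene median from -0.12 to -0.01 with 2 µM and from -0.11 to 0.03 with 10 µM, and an equal sum took it to -0.42 and -0.56. All genes called with 2 µM then split into 3341 higher and 3264 lower, or 623 and 8595, instead of 2251 and 4633. The members split into 2 higher and 4 lower, or 1 and 7, with 2 µM, and into 2 and 3, or 1 and 8, with 10 µM. DUSP5 remained higher and DUSP6, SPRY4 and ETV5 lower, all past the threshold, at both doses under both scalings. ETV4 lost its call with 10 µM under median-ratio scaling (-0.35, adjusted p = 0.0595). PHLDA1 changed sign under median-ratio scaling, to 0.09 and 0.10 without a call, and was called lower under an equal sum at both doses.

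**Figure D2:**
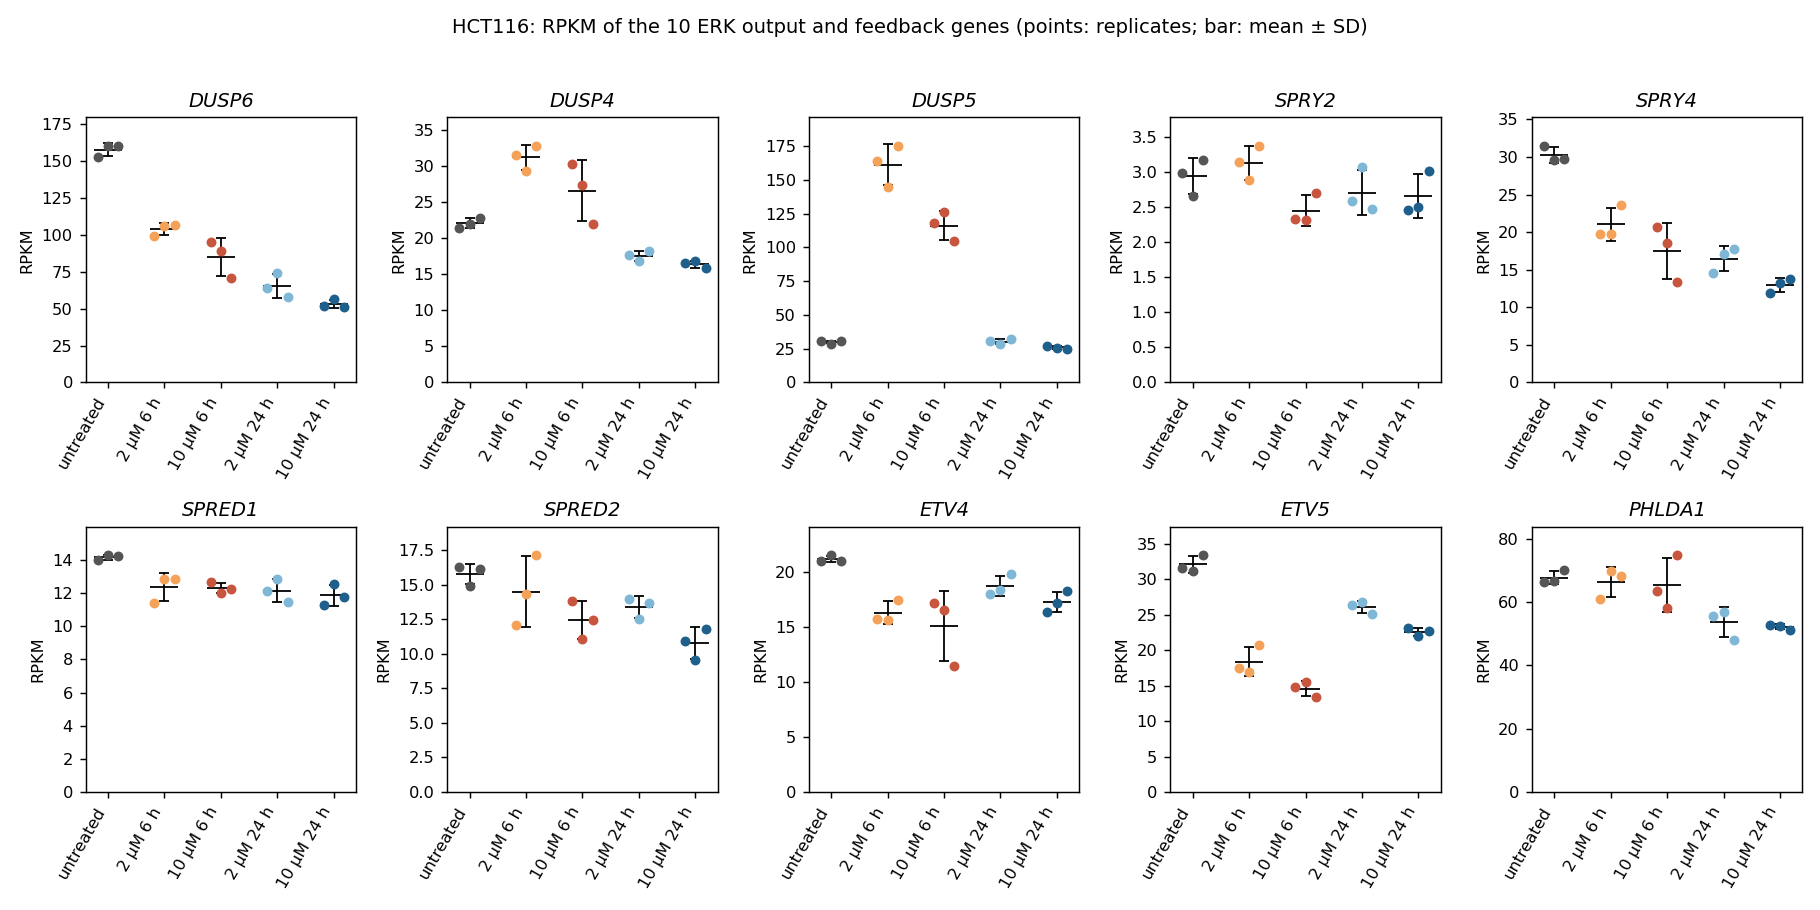
RPKM of each member in the 5 HCT116 groups, with 1 point per replicate and the mean with its SD (n = 3), and axes that start at 0. DUSP5 rises above 100 RPKM at 6 h and is back near 30 RPKM at 24 h, whereas DUSP6 and SPRY4 step down from untreated cells to 10 µM at 24 h.

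By 24 h the members of HCT116 cells pointed one way. With 2 µM Omomyc 8 of 10 were lower and none higher, where 27.3% of 14886 genes were called and 10.8% were lower. With 10 µM 9 of 10 were lower and none higher, where 35.2% of 14827 genes were called and 15.7% were lower. The median change was -0.26 over the members and 0.04 over all genes with 2 µM, and -0.40 and 0.02 with 10 µM. Overlap with untreated libraries was absent in 8 and 9 members, against 44.9% and 49.3% of all genes. DUSP6 and SPRY4 had the largest falls, to 33.6% and 42.98% of untreated cells with 10 µM.

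DUSP6 stood at 64.1, 74.1 and 58.1 RPKM with 2 µM and at 51.7, 56.2 and 50.9 RPKM with 10 µM after 24 h. These values lie well under the lowest untreated value of 152 RPKM. The fold changes were -1.27 (SE 0.08, adjusted p = 6.22e-05) and -1.56 (SE 0.05, adjusted p = 5.56e-07). DUSP4 stood at 17.6, 16.9 and 18.2 and 16.5, 16.8 and 15.8 RPKM, now below untreated cells without overlap, and fell by 0.32 (adjusted p = 0.00399) and 0.42 (adjusted p = 5.25e-04) on the log2 scale. DUSP5 overlapped the untreated range again with 2 µM, at 30.5, 28.3 and 32.04 RPKM (0.01, 95% confidence interval -0.12 to 0.14). With 10 µM it was slightly lower, at 27.1, 25.9 and 25.1 RPKM (-0.20, adjusted p = 0.0169), a call that was lost without untreated replicate 1 or 3 (adjusted p = 0.0634 and 0.0703).

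SPRY4 stood at 14.6, 17.03 and 17.8 RPKM with 2 µM and 11.95, 13.2 and 13.8 RPKM with 10 µM, less than the lowest untreated value of 29.6 RPKM in every library. Its fold changes were -0.86 (SE 0.07, adjusted p = 2.66e-04) and -1.19 (SE 0.07, adjusted p = 6.97e-06). SPRED2, a membrane-associated inhibitor of RAF activation, stood at 13.99, 12.5 and 13.7 and 10.9, 9.53 and 11.8 RPKM and fell by 0.23 (adjusted p = 0.0314) and 0.53 (adjusted p = 0.00121). SPRED1 fell by 0.22 (adjusted p = 0.0305) and 0.25 (adjusted p = 0.0132), to 12.2 ± 0.686 and 11.9 ± 0.639 RPKM (SD, n = 3). Neither gene overlapped its untreated values at 24 h. SPRY2, the least abundant member, was the only 1 of the 10 not called at either dose, with intervals of -0.36 to 0.15 and -0.38 to 0.14.

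ETV5 recovered in part, to 26.3, 26.8 and 25.1 RPKM with 2 µM and 23.1, 21.96 and 22.7 RPKM with 10 µM, and remained lower than untreated cells by 0.29 (adjusted p = 0.00437) and 0.50 (adjusted p = 1.62e-04). ETV4 stood at 18.8 ± 0.937 and 17.3 ± 0.95 RPKM (SD, n = 3) and fell by 0.17 (adjusted p = 0.0455) and 0.29 (adjusted p = 0.00463). DHX8 had means of 26.4 and 24.97 RPKM there. PHLDA1, not called at 6 h, was lower by 0.34 (adjusted p = 0.00652) and 0.37 (adjusted p = 3.83e-04), with 55.6, 57.00 and 48.2 RPKM and 52.9, 52.5 and 51.4 RPKM against 66.3, 66.8 and 70.2 RPKM in untreated cells. The groups did not overlap for any of these 3 genes.

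Of the calls with 2 µM at 24 h, those of SPRED1, SPRED2 and ETV4 were lost in 5, 3 and 5 of the 6 fits that left out 1 library. Only 5 members were called without untreated replicate 1 or 3, and 6 without untreated replicate 2, treated replicate 1 or treated replicate 2, whereas with 10 µM every such fit called 8 or 9. An equal sum took the all-gene median from 0.04 to -0.10 with 2 µM and from 0.02 to -0.15 with 10 µM, and turned the split of all calls from 2466 higher and 1605 lower to 892 and 2980, and from 2888 and 2332 to 1001 and 3899. The members split into 0 higher and 8 lower, and 0 and 9, in that scaling and in median-ratio scaling alike.

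**Figure D3:**
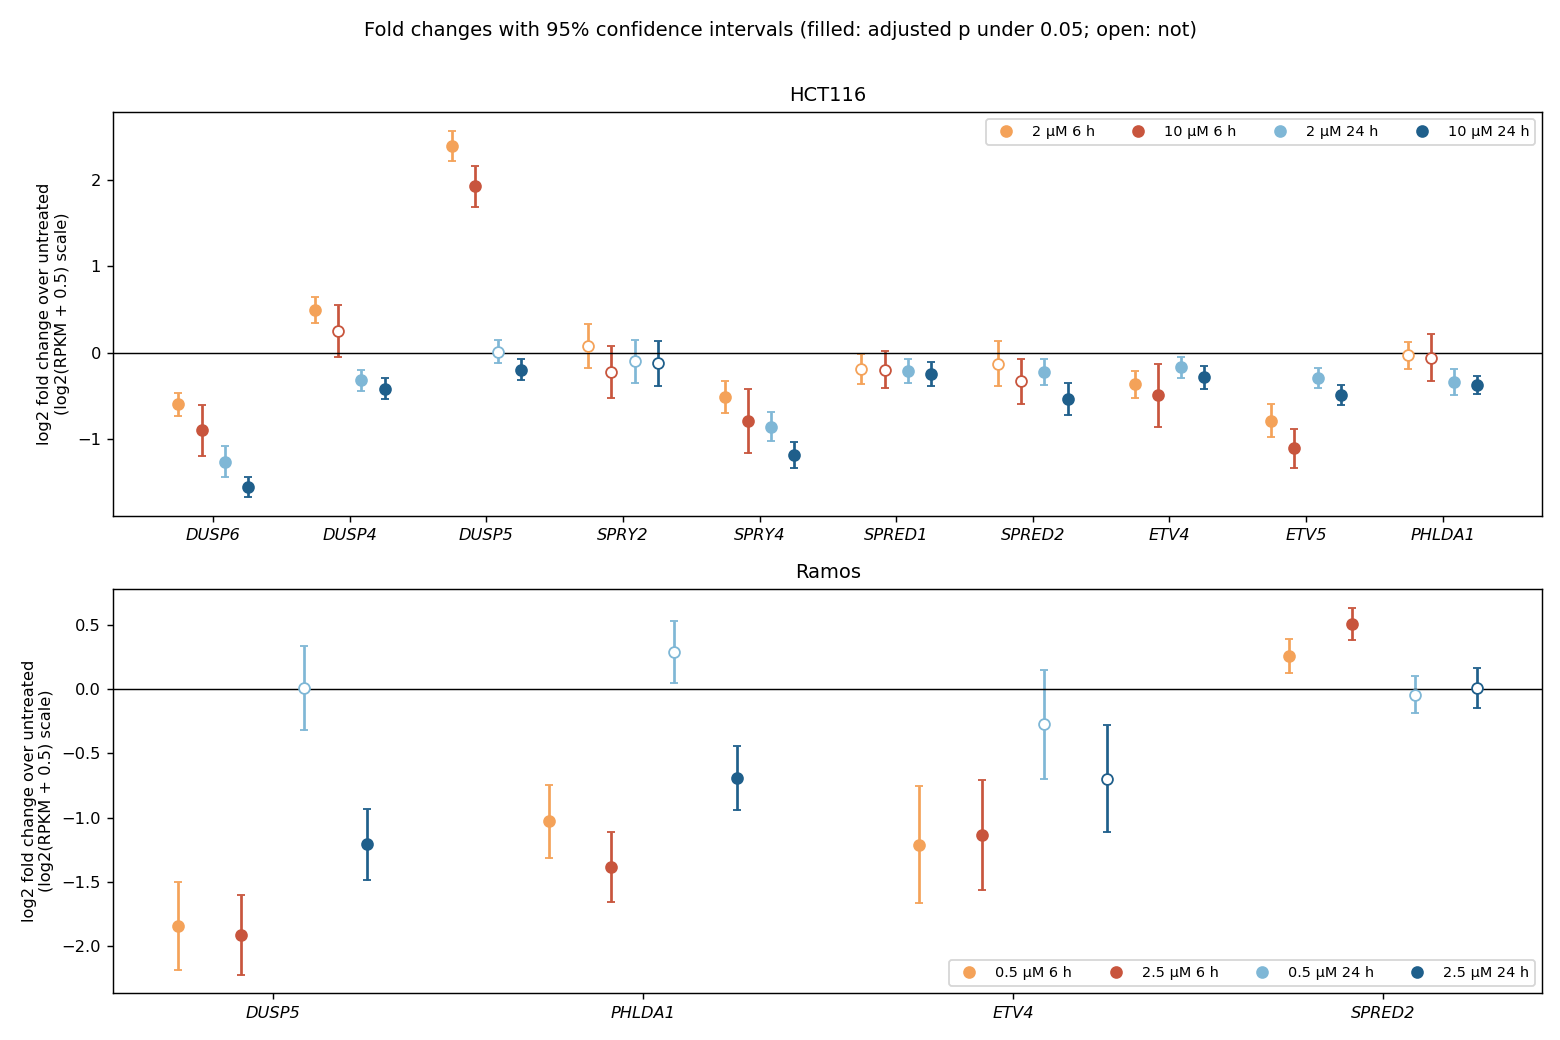
Log2 fold changes over untreated cells with 95% confidence intervals, for the 10 members in HCT116 cells (top) and the 4 tested members in Ramos cells (bottom), filled where the adjusted p is under 0.05. In HCT116 cells DUSP5 is above 1.9 at 6 h and near 0 at 24 h, and in Ramos cells DUSP5 lies below -1.8 at 6 h.

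A direct test of 24 h against 6 h in treated HCT116 cells asked which of these changes differed with time. With 2 µM 6 of 10 members were called (1 higher, 5 lower at 24 h), where 40.8% of 14775 genes were called, and with 10 µM 4 of 10 (1 higher, 3 lower), where 7.86% of 14920 were. Over all genes 30.9% were higher and 9.85% lower with 2 µM, and 5.8% and 2.06% with 10 µM. The 2 times did not overlap for 7 members with 2 µM and 5 with 10 µM, against 54.6% and 38.2% of all genes. DUSP5 was lower at 24 h by 2.39 (adjusted p = 8.01e-07) and 2.13 (adjusted p = 7.81e-05), DUSP4 by 0.81 (adjusted p = 2.02e-04) and 0.67 (adjusted p = 0.0276), and DUSP6 by 0.67 (adjusted p = 9.48e-04) and 0.66 (adjusted p = 0.0285). ETV5 was higher at 24 h by 0.50 (adjusted p = 0.00288) and 0.62 (adjusted p = 0.0171). SPRY4 and PHLDA1 were lower at 24 h with 2 µM, by 0.34 (adjusted p = 0.0246) and 0.31 (adjusted p = 0.0191). Leaving out 1 library lost these calls in 3 of 6 fits for SPRY4 (without replicate 1 or 2 at 24 h or replicate 3 at 6 h, adjusted p = 0.0506 to 0.0993) and in 2 for PHLDA1 (without replicate 3 at either time, adjusted p = 0.0539 and 0.0645). Neither was called under an equal sum, at -0.17 (adjusted p = 0.263) and -0.13 (adjusted p = 0.295). The calls of DUSP4, DUSP6 and ETV5 with 10 µM depended on which libraries were in the fit. Without any 1 of the 3 libraries at 24 h, or without replicate 1 at 6 h, DUSP5 alone was called. Without replicate 2 at 6 h ETV5 was called as well, and without replicate 3 at 6 h 5 members were. All genes had a median of 0.16 and 0.15 in these contrasts, which became 0.32 and 0.42 under an equal sum and 0.02 and -0.01 under median-ratio scaling. All calls split into 4570 higher and 1456 lower with 2 µM, against 6987 and 575, or 2780 and 2746, and into 865 and 308 with 10 µM, against 1396 and 119, or 417 and 560. With 10 µM under an equal sum 1 member was higher and 1 lower, and DUSP4 (-0.37) and DUSP6 (-0.36) were not called.

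Between 10 and 2 µM in HCT116 cells no member was called at either time. At 6 h 0% of 14601 genes were called, with 1242 at an unadjusted p under 0.05, 2 members among them (DUSP5 and ETV5). DUSP5 differed by -0.47 (95% confidence interval -0.77 to -0.17, adjusted p = 0.467), and its replicates did not overlap between doses, with 145 RPKM the lowest at 2 µM and 126 RPKM the highest at 10 µM. A limma fit over all 15 HCT116 libraries called this difference (adjusted p = 0.0288). At 24 h 0.18% of 15039 genes were called, with 1739 at an unadjusted p under 0.05, and 5 members had an unadjusted p under 0.05, DUSP6, DUSP5, SPRY4, SPRED2 and ETV5, each lower with 10 µM. The largest of these was SPRY4, at -0.33 (95% confidence interval -0.53 to -0.13, adjusted p = 0.250). An exact permutation test, two-sided, cannot go below p = 0.1 with 3 libraries against 3, and for SPRY4 it gave that value.

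In Ramos cells only DUSP5, PHLDA1, ETV4 and SPRED2 passed the filter on low values, and the other 6 members were not tested. After 6 h DUSP5, PHLDA1 and ETV4 fell and SPRED2 rose at both doses. With 0.5 µM all 4 tested members were called, where 23.6% of 13614 genes were, and with 2.5 µM all 4 again, where 27.9% of 13595 were. ETV4 is in these counts only through its untreated mean of 1.41 RPKM. Its means at 6 h, 0.327 RPKM with 0.5 µM and 0.368 RPKM with 2.5 µM, were under the limit of 0.5, so its calls carry little beyond these levels. None of the 4 overlapped its untreated values at either dose, against 41.4% and 44.7% of all genes without overlap. After 24 h none was called with 0.5 µM (0.0146% of 13674 genes called) and 2 were called with 2.5 µM (4.61% of 13607, 3.3% higher and 1.31% lower), where 2 and 3 of the 4 did not overlap untreated cells, against 11.5% and 27.4% of all genes.

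DUSP5 went from 4.21, 3.68 and 3.73 RPKM in untreated Ramos cells to 0.639, 0.620 and 0.920 RPKM after 6 h with 0.5 µM and 0.775, 0.582 and 0.641 RPKM with 2.5 µM. It was 5.33 and 5.82 times lower, with fold changes of -1.84 (SE 0.15, adjusted p = 1.51e-04) and -1.91 (SE 0.14, adjusted p = 6.49e-05). After 24 h with 0.5 µM it stood at 4.80, 3.18 and 3.83 RPKM (0.01, 95% confidence interval -0.32 to 0.34), and with 2.5 µM it was lower than untreated cells, at 1.51, 1.35 and 1.32 RPKM (-1.21, SE 0.12, adjusted p = 0.00327). Only the group with 0.5 µM at 24 h overlapped the untreated libraries.

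PHLDA1 followed the same order of groups. It went from 4.99, 4.15 and 4.17 RPKM to 1.93, 1.73 and 2.09 RPKM with 0.5 µM and 1.40, 1.44 and 1.33 RPKM with 2.5 µM at 6 h, falls of 1.03 (adjusted p = 6.80e-04) and 1.38 (adjusted p = 1.28e-04). At 24 h it stood at 5.86, 5.25 and 5.40 RPKM with 0.5 µM, above every untreated library but not called (0.29, 95% confidence interval 0.04 to 0.53, adjusted p = 0.850), and at 2.59, 2.55 and 2.50 RPKM with 2.5 µM, lower by 0.69 (adjusted p = 0.0157). This last call was lost without any 1 of the 3 libraries treated with 2.5 µM for 24 h (adjusted p = 0.0681 to 0.0780). The count of 2 called members then became 1.

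ETV4, low in these cells, went from 1.22, 1.74 and 1.28 RPKM to 0.457, 0.294 and 0.230 and 0.379, 0.445 and 0.280 RPKM at 6 h, without overlap (-1.21, adjusted p = 0.00323, and -1.13, adjusted p = 0.00288). Neither call held in limma without the filter on low values (adjusted p = 0.0951 and 0.0631). At 24 h ETV4 stood at 1.21, 1.19 and 0.837 RPKM with 0.5 µM and 0.811, 0.629 and 0.586 RPKM with 2.5 µM. It lay below every untreated library and was not called (adjusted p = 0.871 and 0.0656). With 2.5 µM at 24 h limma called it lower under an equal sum (-0.56, adjusted p = 0.0369). The same held with all Ramos groups in one fit (-0.70, adjusted p = 0.0216). DHX8 on the other strand had group means of 16.6 to 17.45 RPKM in all 5 Ramos groups. SPRED2 went the other way at 6 h, from 16.4, 15.6 and 16.6 RPKM to 20.2, 19.1 and 19.02 RPKM with 0.5 µM and 23.1, 22.6 and 24.04 RPKM with 2.5 µM, rises of 0.26 (adjusted p = 0.0152) and 0.51 (adjusted p = 3.47e-04). The first of these was lost without replicate 1 or 2 of that group (adjusted p = 0.0503 and 0.0520). At 24 h SPRED2 was back at 15.7 ± 0.528 and 16.3 ± 1.23 RPKM (SD, n = 3), which overlap the untreated values.

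Between 24 and 6 h with 2.5 µM, 3 of the 4 tested members were called, where 23% of 13564 genes were (12.7% higher, 10.4% lower), and none of the 4 overlapped between times, against 40.5% of all genes without overlap. DUSP5 and PHLDA1 were higher at 24 h by 0.70 (adjusted p = 0.00898) and 0.69 (adjusted p = 0.00244), and SPRED2 was lower by 0.50 (adjusted p = 6.39e-04). With 0.5 µM at 24 h, where no member was called, 763 of all genes and 1 member, PHLDA1, had an unadjusted p under 0.05 in limma, and 2 genes of the whole table were called. An equal sum took the all-gene median with 2.5 µM from 0.03 to 0.16 at 6 h and from 0.05 to 0.24 at 24 h, and the split of all calls from 2346 higher and 1449 lower to 3981 and 694 at 6 h and from 449 and 178 to 5221 and 141 at 24 h. The 4 members tested at 6 h split into 1 higher and 3 lower under each scaling and dose.

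**Figure D4:**
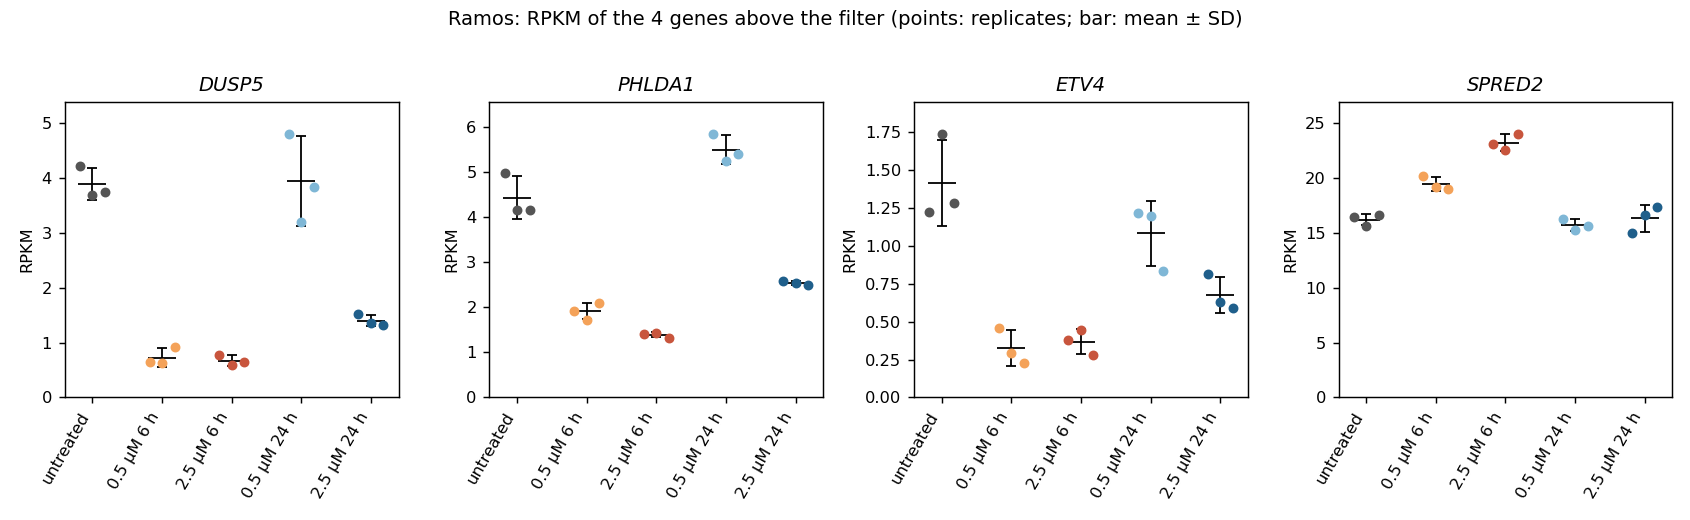
RPKM of the 4 members above the filter in the 5 Ramos groups, with 1 point per replicate and the mean with its SD (n = 3), and axes that start at 0. DUSP5, PHLDA1 and ETV4 are lowest at 6 h, where SPRED2 is highest, and DUSP5 and SPRED2 with 0.5 µM at 24 h overlap untreated cells.

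The change over untreated cells was compared between the lines at the doses closest to each other, 2 µM in HCT116 and 2.5 µM in Ramos cells. DUSP5 moved in opposite directions at 6 h, up in all 3 HCT116 and down in all 3 Ramos libraries, and the difference of the log2 fold changes was 4.31 (SE 0.12, adjusted p = 4.56e-09), the 7th most positive of 15562 genes. PHLDA1 and ETV4 also had a more positive change in HCT116 than in Ramos cells, by 1.35 (adjusted p = 6.79e-06) and 0.76 (adjusted p = 0.00200). PHLDA1 was not called in HCT116 cells (-0.03) and changed by -1.38 in Ramos cells, and ETV4 changed by -0.37 and -1.13. The treated Ramos mean of ETV4 was 0.368 RPKM, under the limit of 0.5, so its difference rests on values near the floor. For SPRED2 the difference was -0.64 (adjusted p = 0.00362). At 24 h the differences were 1.22 for DUSP5 (adjusted p = 8.68e-05), 0.52 for ETV4 (adjusted p = 0.0313) and 0.35 for PHLDA1 (adjusted p = 0.0457). ETV4 and PHLDA1 lost the 24 h call in 8 and 9 of the 12 fits that left out 1 library. The model called 7 of 10 members at each time, where 40.6% of 15562 genes were called at 6 h and 16.3% of 15714 at 24 h. The 6 members under 0.5 RPKM in Ramos cells entered this fit through their level in HCT116 cells, and their terms are not read as a difference in response. Only 3 or 4 members were called at 24 h without replicate 1 or 2 of 2 µM or without any 1 of the untreated HCT116 libraries. Delivery, dose and line cannot be told apart in this comparison.

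Under an equal sum the all-gene median in the 6 h comparison of lines went from -0.14 to -0.55, and all calls from 1895 higher and 4422 lower to 536 and 9345. DUSP5 kept a difference of 3.83 and ETV4 lost its call (0.30, adjusted p = 0.108). At 24 h it went from -0.0018 to -0.30, and the calls from 1070 and 1495 to 344 and 6053. The called members went from 4 higher and 3 lower to 2 and 4 at 6 h, and from 3 and 4 to 1 and 5 at 24 h. These counts include members under 0.5 RPKM in Ramos cells, whose terms are not read as a difference in response. Before rescaling, all members called lower at 24 h were of this kind. Median-ratio scaling moved the median at 6 h to -0.03, with 2810 higher and 3157 lower.

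Over the 15 HCT116 libraries the members fell into different patterns. These correlations are over libraries that share treatments, depth and scaling, so they describe the profiles and are given without a test. DUSP6 and SPRY4 ran together (Pearson r = 0.948), DUSP4 and DUSP5 did (0.903), and so did ETV4 and ETV5 (0.847), while DUSP5 ran against ETV5 (-0.780). Among 11708 genes, the profiles most like DUSP5 were those of NR4A1 (0.995), ATF3 (0.994) and SRF (0.992). DUSP4 was nearest to AMOTL2 (0.970), MYC (0.966) and IER2 (0.965). DUSP6 was nearest to ARHGEF3 (0.965), PHLDB2 (0.954) and YAP1 (0.949), and SPRY4 to NAB2 (0.953), DUSP6 and JCAD (0.941). ETV5 was nearest to ARID5B (0.991), TBC1D1 (0.987) and ZBTB10 (0.986), and ETV4 to NOP9 (0.975), AP2A1 (0.974) and MYH14 (0.973). For PHLDA1 they were GPATCH11 (0.944), FAM8A1 (0.934) and GCH1 (0.932), for SPRED2 SOX9 (0.933), DMTN (0.908) and GNB1 (0.905), and for SPRED1 TRAPPC6A (0.902), FAM169A (0.884) and MEX3A (0.882). SPRY2 had no near profile, with YWHAZ (0.767), STAM (0.755) and NEIL2 (0.749) the closest. In Ramos cells DUSP5 and PHLDA1 ran together (0.972) and SPRED2 ran against both (-0.788 and -0.846). There DUSP5 was nearest to TMSB4X (0.987), CCL3 (0.987) and CCL4 (0.985), PHLDA1 to EGR2 (0.989), BTG2 (0.989) and CCL3 (0.989), and SPRED2 to HMGCS1 (0.952), MTA3 (0.945) and GNAS (0.944).

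The other genes of the pathway were taken from 9 lists of 100 genes in all. Of the 91 tested in HCT116 cells at 6 h with 2 µM, 27 were higher and 31 lower, against 15.5% higher and 31.8% lower over all genes. With 10 µM at 6 h 22 were higher and 23 lower, against 8.84% and 21.2% over all genes, the shares to set beside each count at that dose and time. At the top of the pathway 3 of 6 tested ligands of the EGFR family were higher at 6 h with each dose and none was lower. AREG and EREG rose from means of 192 and 177 RPKM to 560 and 518 RPKM with 10 µM, each 2.92 times the untreated level, and HBEGF from 3.19 to 9.21 RPKM with 2 µM. By 24 h 1 of 6 tested ligands was higher and 1 lower with 2 µM, and 2 of 5 were higher and 0 lower with 10 µM. Of 12 tested receptor tyrosine kinases 1 was higher and 6 lower with 2 µM at 6 h, among the latter INSR (-1.08), IGF1R (-1.06) and ERBB3 (-0.77), and 1 was higher and 2 lower with 10 µM. At 24 h 3 of these kinases were higher and none lower with 2 µM, and 5 were higher and 1 lower with 10 µM. The shares over all genes to set beside each count at 24 h were 16.6% higher and 10.8% lower with 2 µM. With 10 µM they were 19.5% and 15.7%. At 6 h, of 19 RAS proteins and regulators 2 were higher and 9 lower with 2 µM. With 10 µM none was higher and 8 were lower, such as the exchange factor SOS2 (-0.78) and MRAS (-0.72). Among 12 genes listed under RAF, MEK and ERK kinases and scaffolds 5 were lower at each dose, and 1 was higher with 2 µM and 0 with 10 µM. The lower genes with 10 µM included KSR2 (-1.03), MAPK3, which encodes ERK1 (-0.78), and PEBP1 (-0.67). Of 7 tested ERK substrate kinases 5 were lower with 2 µM and 3 with 10 µM, RPS6KA2 by 1.14 on the log2 scale at the latter. At 24 h with 2 and 10 µM, 1 and 1 of the RAS genes were higher and 4 and 7 lower, 0 and 1 of the RAF, MEK and ERK genes were higher and 3 and 5 lower, and 3 and 1 of the substrate kinases were higher and 3 and 3 lower.

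Of 20 other ERK response genes, such as immediate early transcription factors, 14 were higher and 1 lower with 2 µM at 6 h, and 12 and 1 with 10 µM, where 8.84% of all genes were higher and 21.2% lower. With 2 µM at 24 h 4 were higher and 7 lower (all genes 16.6% and 10.8%), and with 10 µM 3 were higher and 12 lower of 19 tested (all genes 19.5% and 15.7%). EGR3 rose from 0.692 to 9.24 RPKM with 2 µM at 6 h, 13.4 times the untreated level. FOS fell from 106.7 to 8.48 RPKM and FOSB from 16.5 to 1.98 RPKM with 10 µM at 24 h. Their list medians with 2 µM were 0.95 at 6 h and -0.10 at 24 h. Of the 7 other phosphatase genes 3 were higher and 2 lower at 6 h with each dose, and DUSP1 rose from 10.7 to 39.3 and DUSP2 from 11.5 to 39.4 RPKM with 2 µM, as DUSP5 did, whereas DUSP16 fell by 0.69 with 10 µM. At 24 h none of the 7 was higher, and 1 and 2 were lower. Among 5 tested genes listed under other Sprouty, Spred and feedback adaptors 2 were higher and 2 lower with 2 µM at 6 h (all genes 15.5% and 31.8%), and 2 and 1 with 10 µM. ERRFI1, an inhibitor of EGFR, rose from 162 to 362 RPKM and IER3 from 219.7 to 355 RPKM with 2 µM at 6 h, and LRIG1 fell by 0.43. None of the 5 was called at 24 h. ETV1, the third PEA3 factor, fell from 20.4 to 7.76 RPKM with 10 µM at 6 h, as ETV4 and ETV5 did, while PHLDA2 rose from 20.1 to 45.4 RPKM with 2 µM at 6 h and PHLDA3 from 6.70 to 7.96 RPKM with 10 µM at 24 h.

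In Ramos cells 60 of the 100 genes were tested at 6 h with 0.5 µM, and 7 were higher and 7 lower (all genes 13.8% and 9.73%). With 2.5 µM 9 of 59 were higher and 13 lower (all genes 17.3% and 10.7%), among them RASGRP1, a RAS exchange factor of lymphocytes, which fell from 11.7 to 6.53 RPKM, and RPS6KA4, which rose from 12.03 to 17.01 RPKM. None of the 60 was called with 0.5 µM at 24 h, where 0.0146% of all genes were called. With 2.5 µM at 24 h 2 of 59 were higher and 2 lower (all genes 3.3% and 1.31%). Of 13 tested ERK response genes 2 were higher and none lower with 0.5 µM at 6 h, and 2 and 3 with 2.5 µM.

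**Figure D5:**
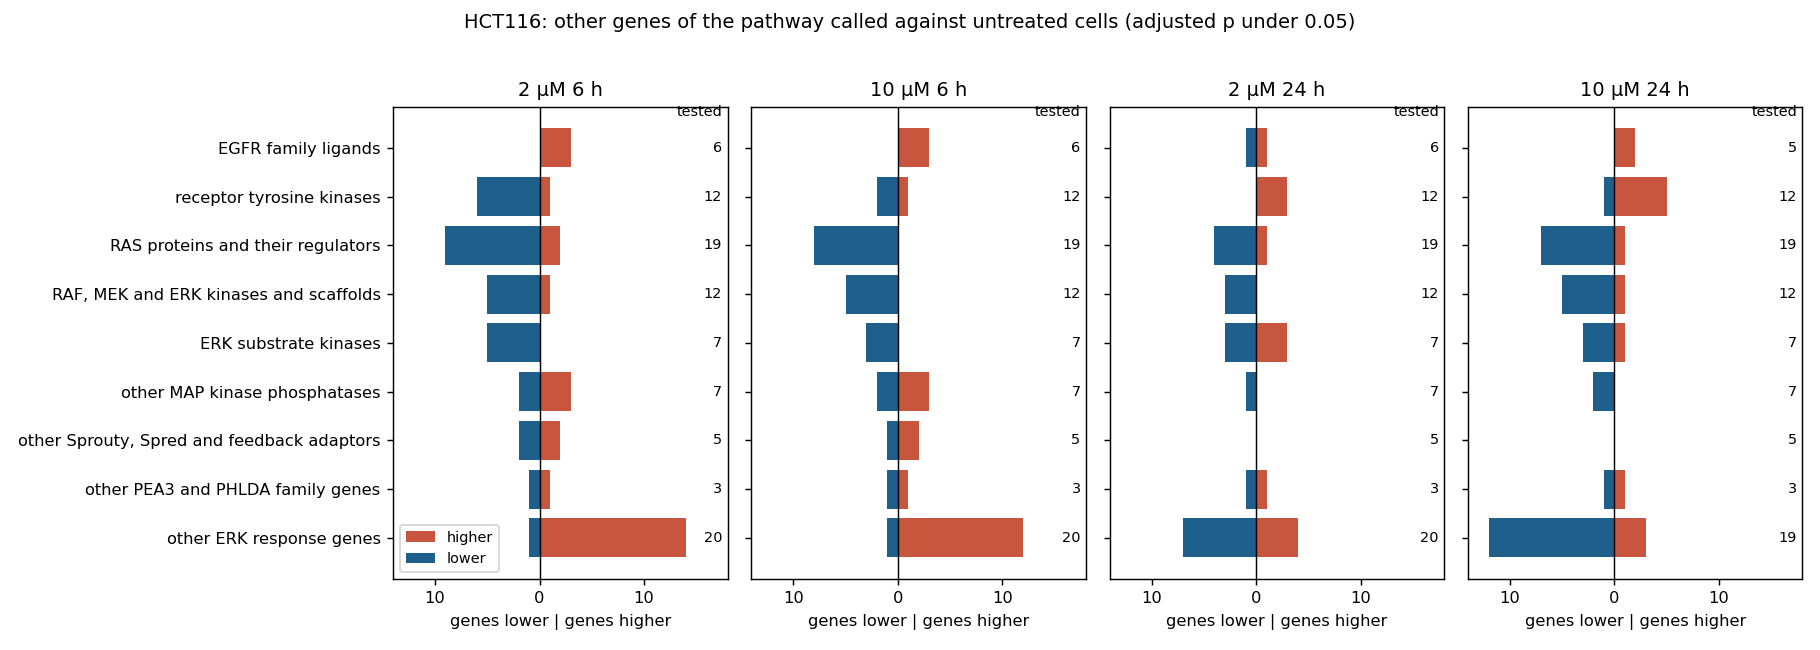
Number of genes called lower (blue, leftward) and higher (red, rightward) against untreated HCT116 cells in each of 9 lists of other pathway genes, with the number tested at the right of each panel, for the 4 treated groups. The list of other ERK response genes has 14 and 12 genes higher at 6 h and 7 and 12 genes lower at 24 h.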

How the data were processed

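RNA-Seq was measured in 15 HCT116 and 15 Ramos libraries prepared with the TruSeq Stranded Total RNA kit with Ribo-Zero depletion. The authors deposited 1 table of RPKM values for 57992 genes. The submitters' processing notes name RSEM, and the aligner, the genome build, the strand setting and the version of RSEM are not given in the sources used here. Gene symbols and positions came from GENCODE 29 (GRCh38), which matched 57388 of the identifiers and lacked 604, and promoters from RefSeq (GRCh38.p14). No column was left unmapped. A marker gene of the fixed lists is not reported here. The members and the pathway lists were chosen with earlier results of these data known.

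Groups followed the labels. Genes with a mean of at least 0.5 RPKM over the libraries compared were tested on log2(RPKM + 0.5) with limma 3.58.1 (R 4.3.3, empirical Bayes moderation with a trend), using only the groups compared, and p-values were adjusted by Benjamini-Hochberg over all genes tested in each of 16 comparisons. Exact permutation tests, two-sided, were run in SciPy 1.17.1 (Python 3.11.15), with a smallest possible p of 0.1. All 10 members were named, and from each pathway list up to 3 genes with the largest called change over the 8 comparisons with untreated cells, a mean of at least 2 RPKM and no overlap between groups. Profiles were compared by Pearson's r on the log2 scale over the 15 libraries of a line. RPKM give no read totals, so depth is relative, and the number of libraries limits the precision. The fit was tested on simulated data with 200 genes changed by 1 on the log2 scale. It called 192 of them (96%) for HCT116 cells with 2 µM at 6 h among 14387 genes, 193 (96.5%) for Ramos cells with 2.5 µM at 6 h among 13448 genes and 182 (91%) for the 6 h comparison of lines among 15017 genes. Beside these, 16, 13 and 6 unchanged genes were called, and with no gene changed 0 were called in each. The changed genes were drawn from those with a mean log2(RPKM + 0.5) over 2, and noise was drawn independently for each gene and library. Smaller changes, changes of lower genes and shifts shared by a whole library were not simulated. Alternatives were pseudocounts of 0.1 and 1, no filter, a filter of 2 RPKM, median-ratio and equal-sum scaling, no trend, a replicate block, all groups in one fit, and each library left out in turn.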

Additional observations from a re-analysis of the deposited data

Results flagged for a closer look

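The change over untreated HCT116 cells differed between 24 and 6 h by limma's test of the difference for several members. With 2 µM the values were -0.67 for DUSP6, -0.81 for DUSP4, -2.39 for DUSP5, -0.34 for SPRY4, 0.50 for ETV5 and -0.31 for PHLDA1. With 10 µM they were -0.66 for DUSP6, -0.67 for DUSP4, -2.13 for DUSP5 and 0.62 for ETV5. In Ramos cells with 2.5 µM they were 0.70 for DUSP5, -0.50 for SPRED2 and 0.69 for PHLDA1.

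The change also differed between HCT116 cells with 2 µM and Ramos cells with 2.5 µM. At 6 h the differences were 4.31 for DUSP5, -0.64 for SPRED2, 0.76 for ETV4 and 1.35 for PHLDA1. That of ETV4 rests on a treated Ramos group with a mean under 0.5 RPKM. At 24 h the differences were 1.22 for DUSP5, 0.52 for ETV4 and 0.35 for PHLDA1.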

How the results depend on the processing

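Of 74 called differences of single members, 40 kept call and direction in every alternative other than leaving out a library, and none of the 74 reversed. The 74 cover all 16 comparisons, with 9 between untreated lines and 7 at each time in the comparison of responses between lines. They thus include members under 0.5 RPKM in Ramos cells, whose calls in those comparisons are not read as results. Without the filter 57992 genes were tested and fewer members were called: 3 with 10 µM at 6 h, 3 with 2 µM at 24 h, 1 in Ramos cells with 0.5 µM at 6 h and 0 with 2.5 µM at 24 h, 3 and 1 between times with 2 and 10 µM, 1 between times in Ramos cells, and 3 between lines at 24 h. An equal sum gave 9 with 10 µM at 6 h and 2 between times with 10 µM. All groups in one fit gave 8 with 10 µM at 6 h, 4 with 2 µM at 24 h, 1 between doses at 6 h and 4 between lines at 24 h. No trend gave 1 in Ramos cells with 2.5 µM at 24 h, a filter of 2 RPKM gave 1 between times in Ramos cells, and a pseudocount of 0.1 gave 4 between lines at 24 h. Apart from the filter, the cause was not tested.

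Libraries with the same replicate number did not deviate together: in 0 of 13 comparisons were all 3 correlations above 0.1 (39 pairs, -0.303 to 0.184, mean -0.0296). Whether the cultures were paired cannot be told from this. A replicate block gave 1 called member between times with 10 µM and 3 between lines at 24 h, and could not be fitted between untreated lines.

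Leaving out 1 library gave 3 to 8 called members with 10 µM at 6 h (3 without untreated replicate 1, 8 without treated replicate 3), 5 to 7 with 2 µM at 24 h, 3 to 4 in Ramos cells with 0.5 µM at 6 h, 1 to 2 with 2.5 µM at 24 h, 1 to 5 between times with 10 µM and 3 to 6 between lines at 24 h.

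Signs turned as follows, and apart from SPRED2 between untreated lines (0.52, equal sum) none of these was called. Median-ratio scaling gave PHLDA1 0.092 and 0.10 with 2 and 10 µM at 6 h, DUSP5 -0.020 with 2 µM at 24 h, DUSP5 -0.012 in Ramos cells with 0.5 µM and SPRED2 -0.046 with 2.5 µM at 24 h, SPRY2 -0.050 between times with 10 µM, SPRED1 0.024 and PHLDA1 0.0054 between doses at 6 h, and SPRED1 -0.020 between lines at 24 h. An equal sum gave SPRY2 -0.21 with 2 µM and DUSP4 -0.23 with 10 µM at 6 h, DUSP5 -0.14 with 2 µM at 24 h, SPRED2 0.022 in Ramos cells with 0.5 µM at 24 h, SPRED1 0.15 and 0.24 and SPRED2 0.077 and 0.093 between times with 2 and 10 µM, SPRY2 -0.22 and SPRED1 -0.21 between lines at 6 h and SPRED1 -0.20 at 24 h, where a pseudocount of 1 gave -0.082. Leaving out 1 library spanned PHLDA1 -0.069 to 0.029 and -0.16 to 0.023 with 2 and 10 µM at 6 h, DUSP5 -0.030 to 0.058 with 2 µM at 24 h, DUSP5 -0.13 to 0.13 in Ramos cells with 0.5 µM and SPRED2 -0.036 to 0.068 with 2.5 µM at 24 h, SPRED1 -0.081 to 0.012 and SPRED2 -0.22 to 0.025 between times with 2 µM, SPRED1 -0.063 to 0.020, PHLDA1 -0.13 to 0.054 and ETV4 -0.23 to 0.052 between doses at 6 h, SPRY2 -0.10 to 0.057, SPRED1 -0.072 to 0.0077 and PHLDA1 -0.11 to 0.013 between doses at 24 h, and SPRED1 -0.12 to 0.12 between lines at 24 h.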
